A study of Homo sapiens with 6 samples.

Results

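The 47 genes described here were near silent in HT-1080 cells given only the solvent and were read in every library of cells given PhenDC3. They were chosen by their measured values in this contrast, as the genes of the deposited table with a mean normalized count under 5 in DMSO and of 30 or more in PhenDC3, of 22925 genes in all. Genes of the mitochondrial genome, genes whose listed symbol starts with ZNF, LINC or MTRNR2L or holds -AS, and RPL3L and HIST1H1E were left out. The exclusions removed 2 of the 49 genes that met both thresholds, RPL3L and LINC01647. Since that choice used this contrast, levels and fold changes of the 47 genes are a description and carry no test.

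HT-1080 is an established human fibrosarcoma line, a tumour of connective tissue. The compound PhenDC3 stabilises G quadruplexes, folds in which 4 strands of guanine-rich DNA or RNA stack together. The PhenDC3 group had 20 μM of the compound in 1% DMSO for 48 h, and the DMSO group had 1% DMSO alone for 48 h, so all 6 libraries carry the solvent. Each group has 3 libraries of poly(A) RNA, made with a stranded kit. The line is a single tumour line, and nothing in the labels says whether the libraries came from separate cultures, so the spread between them may be technical.

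A gene that is silent in a differentiated or tumour cell is usually one whose promoter or enhancers work in another tissue. Such genes are held off by missing transcription factors, by DNA methylation or by closed chromatin, and a few reads from them are common in poly(A) libraries. Sensory receptors, digestive enzymes, mucins, muscle enzymes and the motors of motile cilia are classic examples of genes with narrow tissue ranges.

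Library depth was 12574952 to 14292987 reads in DMSO and 7371056 to 9386691 in PhenDC3. A single read was therefore worth 0.690 to 0.778 normalized counts in a DMSO library and 1.183 to 1.49 in a PhenDC3 one, and values under about 5 rest on a few reads. The DMSO libraries were not equally alike, as a chi-square of their reads over genes was 6.99 and 6.47 per degree of freedom between DMSO replicate 3 and replicates 1 and 2, and 1.69 between those 2. Without DMSO replicate 3 the thresholds were met by 47 genes as well. Of the mesenchymal markers VIM, FN1 and CDH2 were high in both groups, though each was called lower in PhenDC3. COL1A1 was called higher (53.9 to 83.2, limma adjusted p = 0.00297), S100A4 (43.5 and 53.4) was not called, and COL1A2 and THY1 were near silent in DMSO and were not tested. The summed level of the 7 mesenchymal markers was 33819 to 37178 in DMSO and 19864 to 20065 in PhenDC3. Of 16482 genes tested with limma, 29.2% were called higher in PhenDC3 and 30.4% lower, at a Benjamini-Hochberg adjusted p under 0.05. All 47 genes passed the limma filter on low values, a mean of 5 or more over the 6 libraries, but only through their PhenDC3 libraries. Any other gene with a DMSO mean under 5 was tested only if its PhenDC3 mean was above 5. The filter therefore favours calls of higher among such genes.

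Coming on from silence was rare. In DMSO 6910 genes had a mean under 5 before any exclusion, and the 47 make up 0.68% of them, a share the rule itself fixes (0.722% of the 6507 left after the exclusions). Of these near-silent genes 5613, or 81.2%, also stayed under 5 in PhenDC3, 923 lay between 5 and 10, 269 between 10 and 20, 56 between 20 and 30, and 49 at 30 or more. In bulk RNA more cells carrying a transcript and more transcript per cell cannot be told apart, so a mean of 30 may come from few cells.

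The 47 genes together reached 106, 105 and 116 in the DMSO libraries and 3126, 3082 and 3186 in the PhenDC3 libraries. In reads these were 136, 136 and 168 against 2641, 2070 and 2428. Between 39 and 40 of the 47 had a read in each DMSO library, and all 47 had reads in each PhenDC3 library. The sums of the 47 genes were thus close within each group.

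**Figure D1:**
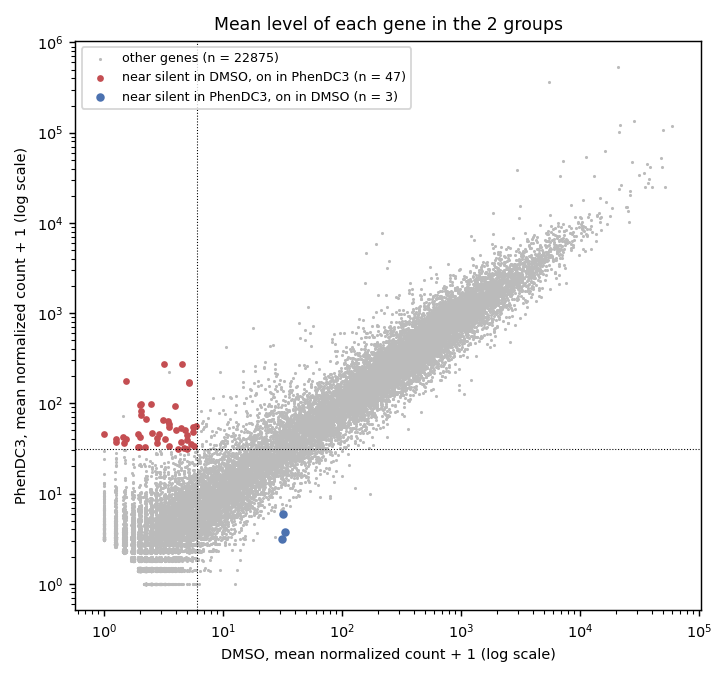
Mean normalized count of every gene in DMSO (horizontal axis) and PhenDC3 (vertical axis), each with 1 added and on a log scale, as the mean of 3 libraries. Dotted lines mark the thresholds of 5 and 30. The 47 genes near silent in DMSO fill the upper left corner, and 3 genes lie in the matching corner below.

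Single genes had means of 0 to 4.97 in DMSO (median 2.21) and 30.4 to 272 in PhenDC3 (median 44.97). Over the 3 DMSO libraries together they had 0 to 20 reads, with a median of 9, and over the 3 PhenDC3 libraries 69 to 619, with a median of 104. The ratio of pooled reads, scaled by the size factors, ran from 6.54-fold to 347-fold with a median of 27.2-fold over the 46 genes with a DMSO read. Intervals given with such ratios below are exact 95% intervals for counting error only. In PhenDC3 5 genes had means of 100 or more, 15 lay between 50 and 100, and 27 were under 50. The highest PhenDC3 library was less than 1.5 times the lowest for 36 of the 47 genes, and at most 2.16 times.

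The set depends on where the lines fall. Just inside the DMSO limit were FTCD (4.97), AC015726.1 (4.77) and ENSG00000265500 (4.66), and just outside it MSC (5.55 in DMSO, 48.3 in PhenDC3), LINC02392 (5.66 and 34.4) and AL162431.2 (5.66 and 32.8). Just above the PhenDC3 limit were CEP295NL (30.4), TMEM266 (30.5) and AC100797.1 (30.8), and just below it LOC284344 (29.7), FBXW10 (29.1) and PLAC9 (28.7). A DMSO library of 5 or more was present for 10 of the 47 genes, the highest being 9.65 for AC015726.1. A PhenDC3 library under 30 was present for 12, the lowest being 21.3 for TRIM54. When every library, not the mean, had to pass its threshold, 28 genes remained.

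By the gene types of GENCODE 29, 26 of the 47 were protein coding, 7 long intergenic RNAs, 4 antisense RNAs, 5 pseudogenes and 1 a sense intronic RNA, and 4 had no entry in that release. Near-silent coding genes came on in 1.29% of 2011 cases, long intergenic RNAs in 0.826% of 847, antisense RNAs in 0.341% of 1174 and pseudogenes in 0.276% of 1813. Of the 47, 26 carried a symbol in the deposited table. Reference tables name another 5 as MCPH1-AS1, PDE7B-AS1, LINC00942, MTRNR2L2 and MTRNR2L9, and without them 42 genes remain.

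PhenDC3 is a G quadruplex ligand, so the promoter sequences that hold a G quadruplex motif are printed here with the guanine or cytosine runs they are made of. RefSeq promoter windows (GRCh38.p14, 250 bases before to 50 after the gene start) were matched for 19 of the 47 genes. The motif sought was GGG or a longer G run, met 4 times with 1 to 7 bases of any kind between runs, and both strands were searched by also taking C runs. It stood in 4 of the 19 windows, those of RGMA, CALHM1, WNT4 and TMEM266. Below are the 250 bases before the start of each of these genes, on the strand of the gene, 5′ to 3′, with every base of a motif that lies within the stretch in capitals, overlapping motifs included, followed by the same stretch of SERPINB2, which holds no such motif and in which capitals mark an AP-1 motif and a TATA box.
RGMA, chr15:93089212-93089461, minus strand: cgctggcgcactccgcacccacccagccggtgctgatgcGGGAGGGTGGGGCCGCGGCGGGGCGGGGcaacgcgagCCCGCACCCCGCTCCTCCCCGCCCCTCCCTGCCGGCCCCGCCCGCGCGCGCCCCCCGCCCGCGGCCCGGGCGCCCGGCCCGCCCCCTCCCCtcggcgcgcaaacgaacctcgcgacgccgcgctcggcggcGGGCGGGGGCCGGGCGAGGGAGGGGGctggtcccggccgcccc
CALHM1, chr10:103458901-103459150, minus strand: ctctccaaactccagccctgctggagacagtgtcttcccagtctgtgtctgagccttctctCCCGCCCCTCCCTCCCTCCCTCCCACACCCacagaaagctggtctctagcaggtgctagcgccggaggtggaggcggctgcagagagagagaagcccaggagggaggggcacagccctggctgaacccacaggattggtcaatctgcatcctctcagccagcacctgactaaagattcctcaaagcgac
WNT4, chr1:22143098-22143347, minus strand: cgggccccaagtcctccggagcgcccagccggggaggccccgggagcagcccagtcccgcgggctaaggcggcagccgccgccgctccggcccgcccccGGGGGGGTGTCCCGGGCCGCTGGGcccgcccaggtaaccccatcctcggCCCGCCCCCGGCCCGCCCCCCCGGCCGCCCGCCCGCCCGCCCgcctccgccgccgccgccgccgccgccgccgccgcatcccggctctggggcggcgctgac
TMEM266, chr15:76059735-76059984, plus strand: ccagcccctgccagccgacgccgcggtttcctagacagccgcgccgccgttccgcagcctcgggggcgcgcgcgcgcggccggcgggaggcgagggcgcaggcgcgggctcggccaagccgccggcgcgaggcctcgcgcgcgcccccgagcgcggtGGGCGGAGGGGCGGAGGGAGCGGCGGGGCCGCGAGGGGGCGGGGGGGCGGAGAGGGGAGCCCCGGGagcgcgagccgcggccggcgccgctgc
SERPINB2, chr18:63887455-63887704, plus strand: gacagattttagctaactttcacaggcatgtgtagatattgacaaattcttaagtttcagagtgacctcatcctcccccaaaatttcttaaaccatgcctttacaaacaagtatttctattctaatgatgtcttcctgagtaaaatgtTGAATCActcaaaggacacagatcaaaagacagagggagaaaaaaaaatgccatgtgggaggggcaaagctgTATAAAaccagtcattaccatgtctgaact

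The motif share of the switched-on genes, 21.1%, was set beside 29.2% of 2125 near-silent genes with a window, 33.3% of 12702 genes of the table and 24.1% of all 27305 windows. The other 15 matched windows, among them those of SEPT4 and SERPINB2, held none. The motifs of RGMA and WNT4 lay on both strands, those of TMEM266 on the strand of the gene and those of CALHM1 on the opposite strand. Other short motifs were sought in the same way, on both strands and with overlaps between motifs allowed. The AP-1 motif TGANTCA stood in 3 of 19 windows (SERPINB2, TMPRSS15 and TRIM54), or 15.8%, against 7.76% of all windows. TATAAA stood in 3 (FTCD, SERPINB2 and TMPRSS15), against 11.95%. The antioxidant response element TGACNNNGC stood in 3 (SEPT4, LINC00942 and CYP4F11), against 13.6%, and the E-box CACGTG in 0, against 7.43%. A match describes letters in the window and is not a measured binding site.

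The 26 coding genes fall into 4 broad classes by what their products are known to do, drawn up after the genes were known. They are 7 secreted or cell surface proteins, 5 membrane receptors, channels and pumps, 5 metabolic enzymes, and 7 proteins of the cytoskeleton, its motors and membrane traffic, with 2 genes placed in none. By the tissue each is best known from, 5 belong to gut, gland or kidney epithelium, 4 to the nervous system, 3 to liver, 3 to testis or motile cilia, 2 to striated muscle and 2 to taste cells. Single genes are best known from endothelium (ANGPT2), kidney and gonad (WNT4) and osteoclasts (ATP6V0D2). PTGES and SERPINB2 are inducible in many cell types, and 2 genes were given no tissue. No tissue named here accounts for more than 5 of the 26.

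**Figure D2:**
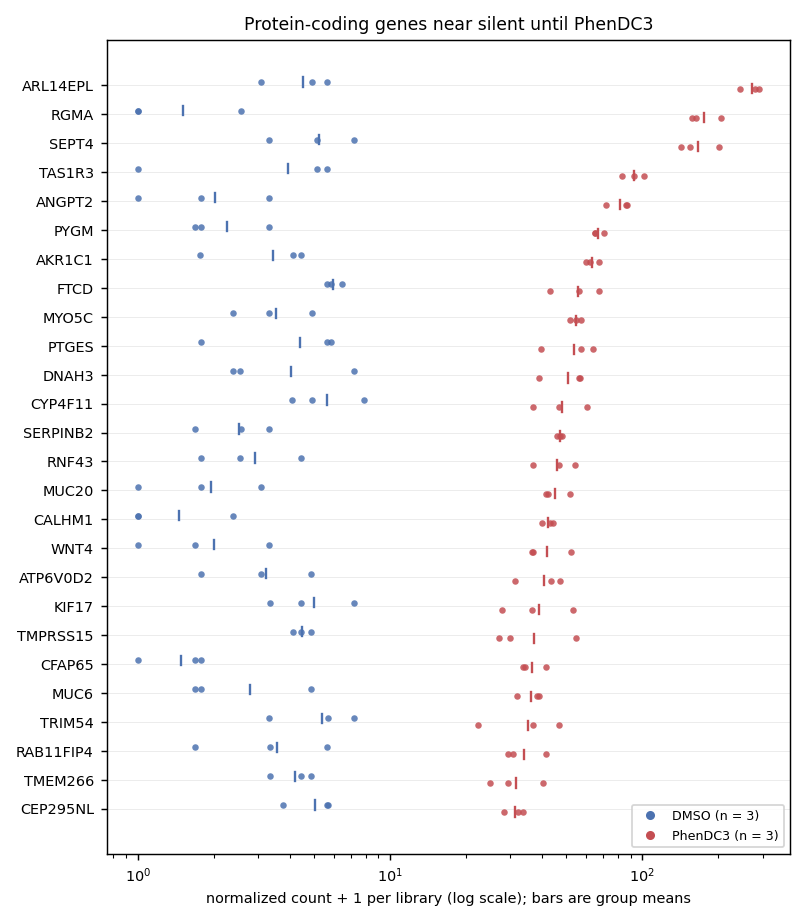
Normalized count with 1 added, on a log scale, of the 26 protein-coding genes in each of the 3 DMSO libraries (blue) and 3 PhenDC3 libraries (red), with the group means as bars. The genes are ordered by PhenDC3 mean, from ARL14EPL at 270.3 to CEP295NL at 30.4, and the groups do not overlap for any of them, which the rule nearly fixes.

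Among secreted and cell surface proteins, RGMA had the largest ratio of the 46 genes with a DMSO read. RGMA (ENSG00000182175, chromosome 15) is a membrane-anchored axon guidance molecule that binds the receptor neogenin. It had 1.56, 0 and 0 in the DMSO libraries and 156, 204 and 163 in the PhenDC3 libraries. Only 2 reads stood behind the DMSO values, both in 1 library, so the ratio of 347-fold (95% counting interval 95.5 to 2878) is known only as a large one. Its paralogue RGMB went the other way, from 547 to 312 (limma, adjusted p = 3.28e-07), and neogenin (NEO1) was 163 and 148 and was not called.

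ANGPT2 (ENSG00000091879, chromosome 8) encodes angiopoietin 2, a secreted ligand of the endothelial receptor TIE2. It had 0.778, 2.32 and 0 in the DMSO libraries and 71.01, 86.3 and 85.3 in the PhenDC3 libraries, a ratio of 80.9-fold (95% counting interval 31.1 to 299.98). The lowest PhenDC3 library lay above the highest DMSO library, 2.32, which the rule nearly fixes for every gene of the set. The TIE2 gene TEK stayed near silent at 2.13 and 1.29, the related receptor TIE1 fell from 1805 to 1416 (limma, adjusted p = 0.000212), and ANGPT1 was 7.497 and 3.78 and was not called, though it was called lower without PhenDC3 replicate 1 (adjusted p = 0.0413). Of the endothelial markers EGFL7 was tested and not called, KDR and VWF were too low to be tested, and the summed level of these 3 was 227 to 304 in DMSO and 238 to 322 in PhenDC3.

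WNT4 (ENSG00000162552, chromosome 1) is a secreted Wnt ligand of kidney and ovary development. It had 0, 2.32 and 0.6896 in the DMSO libraries and 35.5, 35.7 and 51.2 in the PhenDC3 libraries, a ratio of 41.1-fold (95% counting interval 15.5 to 154), and PhenDC3 replicate 3 was the highest. Of 5 other Wnt ligands tested, WNT7B rose from 371 to 464 (limma, adjusted p = 0.00269), WNT5A fell from 275 to 168 (adjusted p = 9.85e-06) and WNT3, WNT10B and WNT2B were not called. RNF43 (ENSG00000108375, chromosome 17), a ubiquitin ligase that removes Wnt receptors from the cell surface, also belongs to the set. It had 0.778, 1.55 and 3.45 in the DMSO libraries and 53.3, 35.7 and 45.9 in the PhenDC3 libraries, a ratio of 22.98-fold (95% counting interval 11.2 to 54.6). Its relative ZNRF3 was 189.8 and 207 and was not called, while the R-spondin receptor LGR4 fell from 306 to 172 (limma, adjusted p = 3.96e-06). Of the RNF43 transcript windows of 50 bases, 71.0% also occur in transcripts of other genes, mostly the read-through AC004687.2, so its count is uncertain.

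Gut and gland proteins were represented by the protease TMPRSS15 and the mucins MUC6 and MUC20. TMPRSS15 (ENSG00000154646, chromosome 21) is enteropeptidase, which activates trypsinogen in the duodenum. It had 3.11, 3.87 and 3.45 in the DMSO libraries and 26.04, 53.6 and 28.9 in the PhenDC3 libraries, and PhenDC3 replicate 2 held about as much as the other two together. The related type II membrane proteases TMPRSS9 (37.8 to 191, limma adjusted p = 4.73e-11) and CORIN (14.6 to 28.6, adjusted p = 0.00214) rose. TMPRSS6 (3.45 and 11.9) passed the filter on low values only through PhenDC3. ST14, TMPRSS5 and TMPRSS7 were too low to be tested, with PhenDC3 means of 5.62, 2.47 and 2.06.

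MUC6 (ENSG00000184956, chromosome 11), a gel-forming mucin of the stomach, had 0.778, 3.87 and 0.6896 in the DMSO libraries and 30.8, 37.2 and 38.05 in the PhenDC3 libraries. MUC20 (ENSG00000176945, chromosome 3), a membrane mucin, had 0.778, 0 and 2.07 in the DMSO libraries and 41.4, 50.6 and 40.7 in the PhenDC3 libraries, but 54.1% of its transcript windows are shared, chiefly with MUC20-OT1 and the pseudogene MUC20P1. MUC20 also overlaps SDHAP2 on the same strand by 1820 exonic bases. SDHAP2 rose from 129 to 246 (limma, adjusted p = 1.63e-07), and whether its reads enter the MUC20 count was not tested. Neither mucin's groups overlapped, which the rule nearly fixes for every gene of the set. The other mucins did not follow them. MUC1 fell from 16.7 to 5.94 (limma, adjusted p = 0.00229), and MUC3A, MUC4, MUC13, MUC15 and MUC19 all had DMSO means under 5 and PhenDC3 means of 4.28 or less.

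SERPINB2 (ENSG00000197632, chromosome 18), plasminogen activator inhibitor 2, is induced by inflammatory signals in many cells. It had 1.56, 2.32 and 0.6896 in the DMSO libraries and 44.97, 46.1 and 47.2 in the PhenDC3 libraries, a ratio of 30.9-fold (95% counting interval 13.7 to 86.2), with the closest agreement between PhenDC3 libraries among the secreted proteins. SERPINB2 shares 18.2% of its transcript windows with SERPINB10. Of 5 other clade B serpins tested, SERPINB7 rose from 122 to 250.3 (limma, adjusted p = 6.05e-08) and SERPINB8 from 445 to 560.1 (adjusted p = 0.00101). Both are the nearest rows of the table on either side of SERPINB2. The smaller changes of SERPINB5 (higher) and SERPINB6 (lower) each lost their call without 1 library, SERPINB5 without PhenDC3 replicate 2 (adjusted p = 0.0662) and SERPINB6 without PhenDC3 replicate 3 (0.0671).

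The membrane class holds both proteins known from taste cells. TAS1R3 (ENSG00000169962, chromosome 1) is the subunit shared by the sweet and umami receptors. It had 0, 4.64 and 4.14 in the DMSO libraries and 101, 81.9 and 91.8 in the PhenDC3 libraries, a ratio of 30.9-fold (95% counting interval 17.3 to 60.8). CALHM1 (ENSG00000185933, chromosome 10) is the voltage-gated channel through which taste cells release ATP. It had 0, 0 and 1.38 in the DMSO libraries and 39.1, 43.2 and 41.99 in the PhenDC3 libraries, with 2 DMSO reads in all and a ratio of 83.1-fold (95% counting interval 22.4 to 696). DMSO libraries without a single read were thus seen for both, 1 of 3 for TAS1R3 and 2 of 3 for CALHM1. CALHM2, the next gene on the chromosome, rose from 47.4 to 112 (limma, adjusted p = 6.33e-07), while CALHM5 was 40.5 and 30.8 and was not called. Of the 79 G protein-coupled receptor genes in a prepared list that were near silent in DMSO, 1 (TAS1R3) came on, or 1.27%. Over all near-silent genes the share was 0.68%, and nothing is read from the difference.

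ATP6V0D2 (ENSG00000147614, chromosome 8) is the d2 subunit of the membrane part of the vacuolar proton pump, used in osteoclasts and kidney. It had 0.778, 3.87 and 2.07 in the DMSO libraries and 42.6, 46.1 and 30.2 in the PhenDC3 libraries. Of its transcript windows 12.8% are shared, nearly all with the opposite strand of AC023194.3. The pump's widely used subunits moved as well. Of 9 other V0 subunits and accessory proteins tested, 6 rose, among them ATP6V0A1 from 365 to 750.5 (limma, adjusted p = 4.69e-10) and ATP6V0D1, the everyday counterpart of d2, from 682 to 1218 (adjusted p = 2.56e-08). ATP6AP2 and ATP6V0E2 fell. Of the 16435 other genes tested 28.96% rose and 30.5% fell, and whether the V0 genes moved together was not tested. TMEM266 (ENSG00000169758, chromosome 15), a voltage-sensing protein known from the cerebellum, had 2.33, 3.87 and 3.45 in the DMSO libraries and 28.4, 23.8 and 39.4 in the PhenDC3 libraries, and its only relative in the table, the proton channel HVCN1, had means of 2.96 and 1.23.

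The metabolic enzymes span muscle, liver and inducible genes. PYGM (ENSG00000068976, chromosome 11) is the muscle form of glycogen phosphorylase. It had 0.778, 2.32 and 0.6896 in the DMSO libraries and 63.9, 64.01 and 69.5 in the PhenDC3 libraries, a ratio of 53.03-fold (95% counting interval 22.2 to 166). The liver form PYGL fell from 1863 to 1482 (limma, adjusted p = 0.000157), and the brain form PYGB was 1871 and 1923 and was not called. The second gene best known from muscle, TRIM54 (ENSG00000138100, chromosome 2), encodes the muscle ring finger protein MURF3. It had 4.67, 2.32 and 6.21 in the DMSO libraries and 21.3, 35.7 and 45.9 in the PhenDC3 libraries, which is the widest spread between PhenDC3 libraries in the set. Its relatives TRIM63 (0 and 3.65) and TRIM55 (0.947 and 1.33) stayed near silent. Of the muscle markers only ACTA1 was tested, and it was not called, though it was called lower without DMSO replicate 2 (adjusted p = 0.0177) and with a replicate block (0.0313). It had 5.45, 3.09 and 48.3 in the DMSO libraries and 2.37, 2.98 and 9.18 in the PhenDC3 libraries. DES had 0, 0.773 and 14.5 in the DMSO libraries and 0, 0 and 3.94 in the PhenDC3 libraries, and CKM had 0.778, 0.773 and 22.8 in the DMSO libraries and 1.183, 1.49 and 1.31 in the PhenDC3 libraries. DMSO replicate 3 alone was high for all 3 markers, and the other DMSO libraries lay within or below the PhenDC3 range.

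AKR1C1 (ENSG00000187134, chromosome 10) reduces steroids and aldehydes and is abundant in liver. It had 3.11, 0.773 and 3.45 in the DMSO libraries and 66.3, 61.04 and 59.04 in the PhenDC3 libraries, a ratio of 25.1-fold (95% counting interval 13.3 to 53.5). Its neighbour AKR1C2 had no DMSO read and a PhenDC3 mean of 4.42, and 28.6% of AKR1C1's transcript windows are shared, nearly all with AKR1C2, so reads of the pair may be split uncertainly. AKR1C3 rose from 27.1 to 77.1 (limma, adjusted p = 5.84e-07) and AKR1B1 from 1146 to 1868 (adjusted p = 3.31e-08). In the wider prepared list of aldo-keto reductases, glutathione transferases and sulfotransferases with other detoxifying enzymes, 5 of 28 further genes tested rose and 11 fell, among them ALDH7A1 from 754 to 227 (adjusted p = 6.56e-13). Over the 28 genes the median change was -0.32 on the log2 scale, against -0.02 over the 16435 other genes tested.

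FTCD (ENSG00000160282, chromosome 21) joins histidine breakdown to the folate pool in liver. It had 5.45, 4.64 and 4.83 in the DMSO libraries and 66.3, 55.1 and 41.99 in the PhenDC3 libraries. HAL and AMDHD1, which act earlier in the same pathway, stayed low with PhenDC3 means of 6.203 and 5.81. CYP4F11 (ENSG00000171903, chromosome 19), a liver fatty acid hydroxylase, had 3.89, 3.09 and 6.896 in the DMSO libraries and 59.2, 35.7 and 45.9 in the PhenDC3 libraries, and its close relatives CYP4F2 and CYP4F3 had PhenDC3 means of 2.12 and 2.36. Of 16 further cytochrome P450 genes tested, 8 were called higher and 1 lower, with a median log2 change of 0.57. Over the 16435 other genes tested 28.96% were called higher and 30.5% lower, with a median of -0.02. CYP1A1 rose from 7.67 to 27.9 (limma, adjusted p = 2.49e-05). CYP26B1, which degrades retinoic acid, was 0.747 and 12.01 and passed the filter on low values only through PhenDC3. It is counted among the 8 and in the median, so nothing is read from these. Of the liver markers, SERPINA1 fell from 9.31 to 2.66 (limma, adjusted p = 0.00746), a call lost with DESeq2 on recovered reads (adjusted p = 0.0722). APOA1 was 1.01 and 0.891 and was not tested, and ALB and TTR had no row.

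PTGES (ENSG00000148344, chromosome 9) is the inducible prostaglandin E synthase. It had 0.778, 4.64 and 4.83 in the DMSO libraries and 62.7, 38.7 and 56.4 in the PhenDC3 libraries, a ratio of 15.4-fold (95% counting interval 8.84 to 29.01). The constitutive synthases PTGES2 (616 to 427, limma adjusted p = 1.67e-05) and PTGES3 (5139.7 to 3286, adjusted p = 1.82e-08) both fell. The inducible cyclooxygenase PTGS2 was 14.8 and 24.4, a rise that passed the test (adjusted p = 0.0318) but not without DMSO replicate 1 or 3 or PhenDC3 replicate 2 or 3 (adjusted p of 0.0697 to 0.125).

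Motor and cytoskeleton genes made up the fourth class. SEPT4 (ENSG00000108387, chromosome 17) is a septin of brain and of the sperm tail. It had 6.23, 2.32 and 4.14 in the DMSO libraries and 200.01, 141 and 154 in the PhenDC3 libraries, a ratio of 39.6-fold (95% counting interval 24.4 to 68.7). The abundant septins of these cells did not rise with it. Of 10 others tested, SEPT6, SEPT7, SEPT8, SEPT10 and SEPT11 fell, SEPT6 from 211 to 88.2 (limma, adjusted p = 1.59e-08), and SEPT2, SEPT5 and SEPT9 were not called, except SEPT2 as lower without DMSO replicate 3 (adjusted p = 0.00752). SEPT3 was 3.303 and 8.902. It passed the filter on low values only through its PhenDC3 libraries, so no test is given for it.

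DNAH3 and CFAP65 are parts of motile cilia and sperm tails. DNAH3 (ENSG00000158486, chromosome 16), an axonemal dynein heavy chain, had 6.23, 1.55 and 1.38 in the DMSO libraries and 55.6, 55.1 and 38.05 in the PhenDC3 libraries. CFAP65 (ENSG00000181378, chromosome 2), a flagellar protein, had 0.778, 0 and 0.6896 in the DMSO libraries and 33.1, 32.8 and 40.7 in the PhenDC3 libraries, with 2 DMSO reads and a ratio of 71.6-fold (95% counting interval 19.2 to 601). Other axonemal dyneins were higher as well. Of 6 tested, DNAH17 rose from 22.9 to 75.4 (limma, adjusted p = 2.23e-07), DNAH11 from 61.1 to 142 (adjusted p = 6.41e-07) and DNAH5 from 6.52 to 20.9 (adjusted p = 0.000268). DNAH1 was called higher and DNAH14 lower, but each call was lost without 1 library. The adjusted p then lay between 0.0674 (DNAH1 without DMSO replicate 1) and 0.149 (DNAH14 without PhenDC3 replicate 3). DNAH1 lost its call without DMSO replicate 1 or PhenDC3 replicate 2, and DNAH14 also without DMSO replicate 2 or PhenDC3 replicate 1. DNAH6, the last of the 6, was 3.79 and 11.1 and passed the filter on low values only through PhenDC3, so no test is given for it. Of 13 other CFAP genes tested 5 were called higher and 2 lower, beside 28.96% and 30.5% of all other genes tested. CFAP70 had 4.67, 3.09 and 2.76 in the DMSO libraries and 15.4, 20.8 and 27.6 in the PhenDC3 libraries. CFAP100 had means of 1.44 and 9.37. Both are among the 5 and passed the filter on low values only through PhenDC3, so nothing is read from the count. The germ line marker SYCP3 stayed low at 2.499 and 5.73.

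MYO5C (ENSG00000128833, chromosome 15), the class V myosin of exocrine glands, had 3.89, 2.32 and 1.38 in the DMSO libraries and 50.9, 53.6 and 56.4 in the PhenDC3 libraries. MYO5B rose less, from 152 to 215 (limma, adjusted p = 0.000732), and MYO5A, the next gene upstream, was 1345 and 1323 and was not called, though it was called lower without DMSO replicate 3 (adjusted p = 0.0236). KIF17 (ENSG00000117245, chromosome 1), a kinesin of neuronal dendrites, had 2.33, 6.19 and 3.45 in the DMSO libraries and 52.1, 26.8 and 35.4 in the PhenDC3 libraries. Its PhenDC3 replicate 1 was the highest and replicate 2 the lowest, 1.94 times apart.

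RAB11FIP4 (ENSG00000131242, chromosome 17), an adaptor of recycling endosomes that is enriched in brain, had 2.33, 4.64 and 0.6896 in the DMSO libraries and 28.4, 29.8 and 40.7 in the PhenDC3 libraries. All 4 other RAB11FIP genes rose, RAB11FIP5 the most, from 796 to 1553 (limma, adjusted p = 1.64e-10). Of the 16435 other genes tested 28.96% rose, and nothing is read from a count this small. Beside the genes known from the nervous system, the neuronal marker SYT1 was 4.71 and 24.9, and passed the filter on low values only through PhenDC3. SNAP25 (77.2 and 87.2) was not called and RBFOX3 stayed low (3.16 and 5.89). The part of any marker in these results was not tested.

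The coding gene with the highest level per length has no assigned role here. ARL14EPL (ENSG00000268223, chromosome 5), named for its likeness to the ARL14 effector protein, had 3.89, 4.64 and 2.07 in the DMSO libraries and 243, 278 and 289.96 in the PhenDC3 libraries, a ratio of 77.4-fold (95% counting interval 45.8 to 142). Its better known relative ARL14EP was 370.4 and 386 and was not called. Per kilobase of annotated exon, ARL14EPL reached a PhenDC3 level of 141, the highest of the 26, and RAB11FIP4 the lowest at 2.14. The median coding gene of the set had 11.3 normalized counts per kilobase in PhenDC3, against 62.1 for the 12064 other coding genes, of which 17.2% lay below that median.

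The prepared lists of tissue and gene family names, written from general knowledge, held 10 of the 47 genes, in 6 of 22 lists. Epithelial junction and identity genes gave 3 of 31 near-silent genes (MUC20, TMPRSS15 and MUC6), or 9.68%, where 0.68% of all near-silent genes came on. Sperm and motile cilium genes gave 2 of 26 (7.69%), striated muscle genes 2 of 25 (8%), and cytochrome P450 genes 1 of 12. The lists of neuronal and synaptic genes (39 near silent), cancer-testis and germ line genes (41), voltage-gated ion channels (48) and blood and immune cell genes (34) gave 0. The counts per list are small, and the rule's contrast fixes them, so nothing is read from these shares.

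Beyond the genes that came on, each of these lists had further tested genes that moved in both directions. Among striated muscle genes 10 of 25 rose and 3 fell, with MYH13 going from 116 to 395 (limma, adjusted p = 1.74e-11) and TNNT1, a slow muscle troponin, from 588 down to 215 (adjusted p = 1.53e-11). Among epithelial genes 5 of 15 rose and 2 fell, with CLDN12 going from 699 to 1524 (adjusted p = 4.85e-11). The epithelial transcription factor ELF3 was 0.259 and 10.6 and passed the filter on low values only through PhenDC3. The summed level of the 5 epithelial markers with a row was 2279 to 2801 in DMSO and 2441 to 2684 in PhenDC3, nearly all of it KRT8 and KRT18, and ESRP1 was at 0 in DMSO and 2.305 in PhenDC3. Over all 16435 other genes tested, 28.96% rose and 30.5% fell.

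The 21 genes that are not protein coding or had no GENCODE entry covered a similar range of normalized counts to the coding ones. MCPH1-AS1 (ENSG00000249898, chromosome 8) had the highest PhenDC3 normalized count of the whole set, a value not scaled for length. It had 2.33, 1.55 and 2.76 in the DMSO libraries and 269.8, 275 and 270.3 in the PhenDC3 libraries, a ratio of 122-fold (95% counting interval 63.6 to 267). Its highest PhenDC3 library was 1.02 times the lowest, the smallest such ratio in the set. AP000692.2 (ENSG00000273199, chromosome 21), an antisense RNA that overlaps the start of MORC3, had 6.23, 1.55 and 4.83 in the DMSO libraries and 179.9, 143 and 193 in the PhenDC3 libraries. The intergenic AL713998.1 (ENSG00000227706, chromosome 6) had 0.778, 1.55 and 2.07 in the DMSO libraries and 115, 96.8 and 82.7 in the PhenDC3 libraries.

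**Figure D3:**
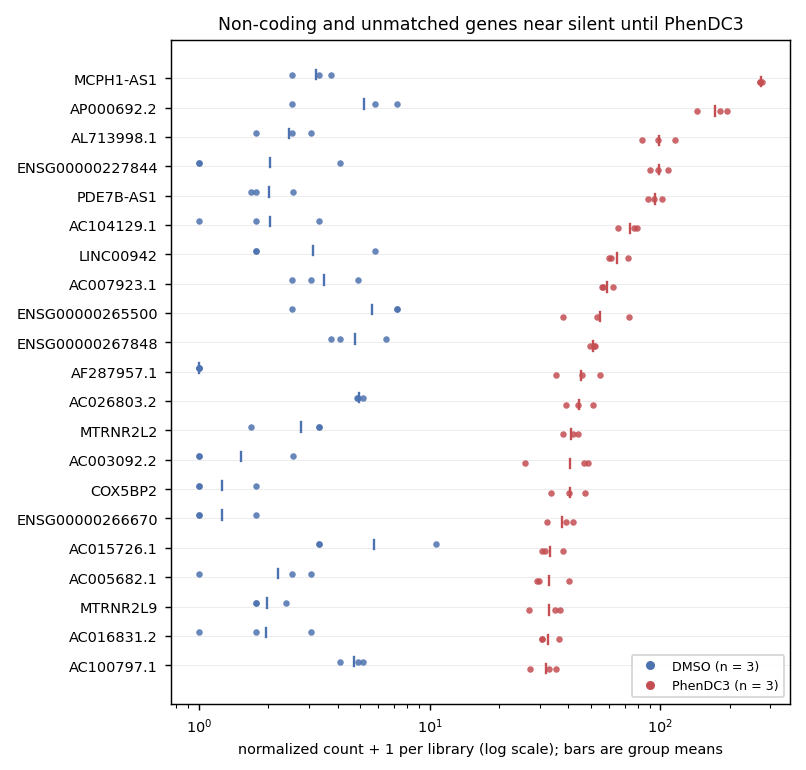
Normalized count with 1 added, on a log scale, of the 21 non-coding or unmatched genes in each DMSO library (blue) and PhenDC3 library (red), with group means as bars. MCPH1-AS1 leads at a PhenDC3 mean of 272, and AF287957.1 has no read in any DMSO library.

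Several of these RNAs were read across or beside one another. PDE7B-AS1 had 1.56, 0.773 and 0.6896 in the DMSO libraries and 101, 87.8 and 93.2 in the PhenDC3 libraries, and the pseudogene COX5BP2, which lies inside it on the same strand, had 0.778, 0 and 0 in the DMSO libraries and 46.2, 32.8 and 39.4 in the PhenDC3 libraries. Every 50-base window of COX5BP2 is shared, so the pair is not independent. MTRNR2L2 (here ENSG00000271043, named from reference tables) and MTRNR2L9 are nuclear copies of part of the mitochondrial 16S ribosomal RNA. They had PhenDC3 means of 40.2 and 31.96. The mitochondrial gene itself, RNR2, went from 20945 to 540055, or 25.8-fold, beside 22.98-fold and 31.8-fold for these copies, and whether their reads came from it was not tested. Another entry with the symbol MTRNR2L2 lies outside the set. It was not near silent in DMSO, with means of 192 in DMSO and 5775 in PhenDC3.

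Chromosome 17 held 6 of the genes, chromosome 8 held 5, and chromosomes 6 and 7 held 4 each. Over the 43 genes with a place in GENCODE 29, 37 (86.0%) had a nearest or overlapping tested gene that limma called higher. This was so for 55.03% of all 6480 near-silent genes and 54.4% of all 22123 genes. With neighbours on the same strand only it was 33 (76.7%, against 48.7%), and when neighbours from the set itself did not count it was 35 (81.4%, against 54.8%). These counts include neighbours such as HSF5 and IHH, which passed the filter on low values only through PhenDC3. The shares without such neighbours were not computed. Overlap as such was about as frequent, as 51.2% of the 43 overlapped another gene of the table, against 52.2%. Exons overlapped on the same strand for 5 (11.6%, against 5%) and on the opposite strand for 11 (25.6%, against 20.6%). The sources used here do not give the strand setting of the counting, so reads of overlapping genes may be assigned to either. How far shared reads or read-through enter these values was not tested.

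**Figure D4:**
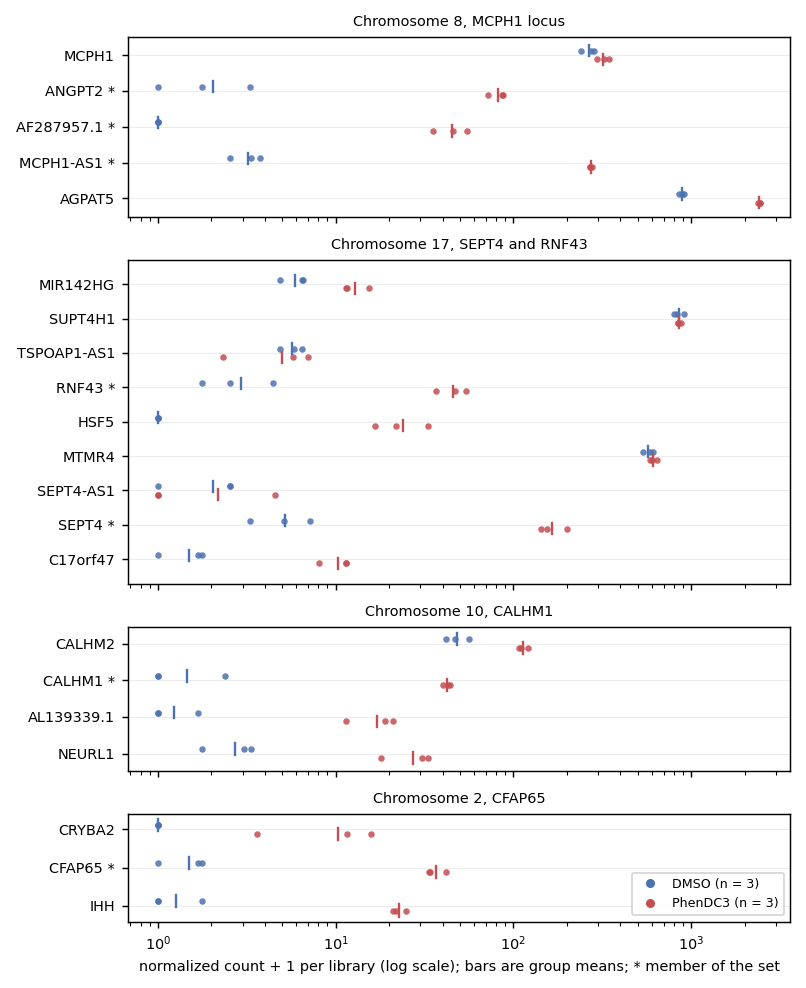
Normalized count with 1 added, on a log scale, in each DMSO library (blue) and PhenDC3 library (red) for genes of 4 neighbourhoods, with group means as bars and an asterisk on genes of the set. At the SEPT4 and RNF43 locus, C17orf47 and HSF5 were also near silent in DMSO, MTMR4 and SUPT4H1 were abundant and not called, and the antisense genes TSPOAP1-AS1 and SEPT4-AS1 stayed low in both groups.

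A run of 3 neighbours came on at the MCPH1 locus of chromosome 8. MCPH1-AS1, AF287957.1 and ANGPT2 follow each other on the minus strand, opposite MCPH1. AF287957.1 starts 1276 bases beyond MCPH1-AS1 and had 0, 0 and 0 in the DMSO libraries and 34.3, 44.7 and 53.8 in the PhenDC3 libraries, which is at least 58.9-fold higher against a floor of 3 reads over the DMSO group. ANGPT2 lies another 52194 bases on. MCPH1 itself was 264 and 319.6, a rise (limma, adjusted p = 0.0195) that was lost without DMSO replicate 3 (adjusted p = 0.0634) or PhenDC3 replicate 3 (0.107). AGPAT5, which starts 147 bases from MCPH1-AS1 on the other strand, rose from 885 to 2417 (adjusted p = 1.51e-13).

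On chromosome 17 SEPT4 and RNF43 lie in 1 neighbourhood. C17orf47, the next gene upstream of SEPT4, had 0.778, 0 and 0.6896 in the DMSO libraries and 7.101, 10.4 and 10.5 in the PhenDC3 libraries, below the limit for testing. HSF5, the next upstream of RNF43, had 0, 0 and 0 in the DMSO libraries and 31.95, 20.8 and 15.7 in the PhenDC3 libraries. With no read in DMSO, it passed the filter on low values only through PhenDC3, so no test is given for it. MTMR4, 2344 bases downstream of SEPT4, was 575 and 611, and SUPT4H1, which overlaps RNF43 by 143 exonic bases, was 849 and 855, and neither was called. MIR142HG, the next downstream of RNF43, was 4.94 and 11.8. As with HSF5, it passed the filter only through PhenDC3, so no test is given for it. Other low genes of the neighbourhood stayed low. TSPOAP1-AS1, which overlaps RNF43 on the opposite strand by 1521 exonic bases, had 5.45, 3.87 and 4.83 in the DMSO libraries and 4.73, 5.95 and 1.31 in the PhenDC3 libraries, and SEPT4-AS1, opposite SEPT4, had 1.56, 1.55 and 0 in the DMSO libraries and 3.55, 0 and 0 in the PhenDC3 libraries.

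CALHM1 and CFAP65 also had neighbours that were near silent in DMSO. Around CALHM1 the antisense AL139339.1 had 0, 0 and 0.6896 in the DMSO libraries and 20.1, 17.9 and 10.5 in the PhenDC3 libraries. NEURL1 had 2.33, 0.773 and 2.07 in the DMSO libraries and 31.95, 29.8 and 17.1 in the PhenDC3 libraries. Beside CFAP65, IHH, which encodes the ligand Indian hedgehog, had 0, 0.773 and 0 in the DMSO libraries and 20.1, 23.8 and 20.99 in the PhenDC3 libraries. CRYBA2 had 0, 0 and 0 in the DMSO libraries and 10.7, 14.9 and 2.62 in the PhenDC3 libraries and was not tested. These 4 genes missed the PhenDC3 limit of 30. Of them AL139339.1, NEURL1 and IHH passed the filter on low values only through PhenDC3, so no test is given for them.

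Other switched-on genes lie beside abundant genes that rose. AC026803.2 ends 142 bases before FTL, the ferritin light chain, on the same strand. It had 3.89, 3.87 and 4.14 in the DMSO libraries and 37.9, 43.2 and 49.9 in the PhenDC3 libraries, and FTL rose from 21322 to 101302 (limma, adjusted p = 8.17e-16). AC104129.1 lies inside MAD1L1 on the opposite strand. It had 0.778, 2.32 and 0 in the DMSO libraries and 78.1, 75.9 and 64.3 in the PhenDC3 libraries, and MAD1L1 rose from 565 to 2439 (adjusted p = 1.68e-14). KIF17 adjoins SH2D5, which rose from 150.5 to 686 (adjusted p = 1.43e-13), and TMEM266 starts 41 bases from NRG4, which rose from 21.4 to 85.3 (adjusted p = 4.95e-08). RGMA ends 7267 bases from CHD2, which rose from 1053 to 2601 (adjusted p = 2.26e-11). Further neighbours of the same genes did not rise. BAX, on the other side of AC026803.2, was 1636 and 1697 and was not called. DDOST, on the other side of KIF17, fell from 3257 to 2648 (limma, adjusted p = 0.000339), and ETFA, which TMEM266 overlaps on the opposite strand, from 1103 to 930.2 (adjusted p = 0.00574).

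Other neighbours rose by less or were not called. CEP295NL (ENSG00000178404, chromosome 17), named for its likeness to a centrosome protein, lies inside TIMP2 on the same strand with 198 exonic bases in common. It had 4.67, 4.64 and 2.76 in the DMSO libraries and 27.2, 31.3 and 32.8 in the PhenDC3 libraries, while TIMP2 rose from 3326 to 4851 (limma, adjusted p = 1.09e-07), so the ratios were 7.62 and 1.46. MYO5C lies between GNB5 and MYO5A, neither of which was called. MUC6 lies between AP2A2, which was 729 and 666 and was not called, and TOLLIP, 237664 bases away, which rose from 309 to 781 (adjusted p = 5.63e-11). FTCD lies between COL6A2, at 1239 and 1262 and not called, and SPATC1L, which rose from 127 to 189.8 (adjusted p = 0.000213).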

How the data were processed

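RNA of 6 HT-1080 libraries, 3 per group as labelled, was compared. Tools named in the submitters' processing notes, without a role for each, are STAR 2.7, TopHat2 2.0.11, featureCounts, DESeq2 1.18.1, Cufflinks 2.2.1, Cuffdiff and CASAVA, and the build named is hg19. The deposited signal values, called normalized counts here, are reads per gene over a library-wide size factor set by the authors, as the values show. In each column 100% were whole multiples of the value of 1 read, within a relative tolerance of 1e-06, so reads were recovered. The authors' deposited log2 fold changes and p-values were used only for a count of calls in an alternative.

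The members and lists were chosen with earlier results of these data known. Classes, tissues and families were assigned from general knowledge after the genes were known. Symbols missing from the table were completed from reference tables. GENCODE 29 (GRCh38, not the hg19 of the files) matched 22123 genes and gave types, exon lengths, gene order and shared 50-base transcript windows. No gene coordinates are given from it, and distances are those of GRCh38.

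Genes that are not members were tested with limma 3.58.1 (R 4.3.3, empirical Bayes with a variance trend) on log2(value + 1), for 16482 genes with a mean of 5 or more. Adjustment was by Benjamini-Hochberg over all of them, with a threshold of 0.05, two-sided. The pseudocount of 1 understates changes of low genes. The fit was tested on simulated data. edgeR 4.0.16 and DESeq2 1.42.0 on recovered reads were alternatives. Ratios of members are pooled reads scaled by size factors with exact 95% intervals, which cover counting error only.

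Named genes were fixed by rule. These were the 25 symbol-bearing members with the highest PhenDC3 mean, further members of each class or list, members and genes at the thresholds, paralogues, tested neighbours and in each list up to 4 called genes, taken by adjusted p. Non-coding members, untested neighbours, marker genes, CFAP70 and CFAP100 were named after their values were seen.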

Additional observations from a re-analysis of the deposited data

How the results depend on the processing

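The count of 47 genes moved with the thresholds, to 22 with a DMSO mean under 2, 97 under 10, 101 with a PhenDC3 mean of 20 or more, 20 at 50 or more and 28 when every library had to pass. It was 47 with library sizes without mitochondrial genes, 46 with TMM scaling, 42 with completed symbols and 41 to 49 when 1 library was left out. The 10 list genes became 4 under 2, 16 under 10, 16 at 20, 3 at 50 and 9 to 11 without 1 library. The 3 genes of the opposite pattern became 0 under 2, 19 under 10, 5 at 20, 0 at 50, 1 with every library, and 1 to 5 without 1 library, being 1 without DMSO replicate 2 and 5 without PhenDC3 replicate 2. The G quadruplex motif count of 4 became 7 with loops of 1 to 12 bases, 14 with runs of 2 or more G and loops of 1 to 4 bases, and 3 on the gene strand only. The 37 genes with a higher neighbour were 33 and 35 under the alternatives.

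limma called 4806 genes higher, 4318 to 4773 without 1 library, 4631 in edgeR, 4274 in DESeq2 and 4250 in the authors' deposited table. Labels share replicate numbers, but residuals of same-numbered libraries correlated at 0.00788 to 0.0712, so the numbers were not taken as pairs, and a replicate block gave 4961. Of the calls of 188 other named genes, 1256 of 1278 were the same under other settings and 1023 of 1118 without 1 library, and 0 reversed. Alternatives with completed symbols, neighbours outside the set and the authors' table were chosen after seeing the data. Depth limits the DMSO side, where 40 of the 47 genes rest on 4 to 20 reads and the others on fewer.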

Other observations

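The opposite pattern, a DMSO mean of 30 or more and a PhenDC3 mean under 5, was met by 3 genes, or 0.0484% of the 6203 genes near silent in PhenDC3. CA9, the hypoxia-induced carbonic anhydrase 9, had 28.8, 37.1 and 27.6 in the DMSO libraries and 4.73, 5.95 and 3.94 in the PhenDC3 libraries. SPNS3, a member of the spinster transporter family, had 24.1, 30.9 and 35.2 in the DMSO libraries and 2.37, 1.49 and 2.62 in the PhenDC3 libraries. ENSG00000229164, which has no GENCODE 29 entry, had 30.4, 30.2 and 35.9 in the DMSO libraries and 1.183, 4.47 and 2.62 in the PhenDC3 libraries. Their PhenDC3 values rest on 5 to 11 reads each.

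Outside the set, other near-silent genes came close to it. LOC284344 had 0.778, 0 and 0.6896 in the DMSO libraries and 26.04, 34.2 and 28.9 in the PhenDC3 libraries, and FBXW10 had 0.778, 0.773 and 0 in the DMSO libraries and 34.3, 25.3 and 27.6 in the PhenDC3 libraries, with 2 DMSO reads each. Among receptors already read in DMSO, GPR132 rose from 13.9 to 171 (limma, adjusted p = 9e-13) and the olfactory receptor OR51I1 from 18.1 to 127 (adjusted p = 3.93e-11).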
